A study of Sus scrofa with 24 samples.

Results

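The WNT signalling system was followed through 10 of its genes in pig preadipocytes, the fibroblast-like precursors of fat cells, while they were driven towards adipocytes in culture. They were 4 ligands (WNT2, WNT5A, WNT10B and WNT11), 5 secreted inhibitors or relatives of inhibitors (SFRP1, SFRP2, SFRP4, DKK1 and DKK3) and AXIN2, a feedback target of the pathway. These 10 were taken by symbol from the 25462 genes of the deposited expression table. The cells came from Yorkshire piglets aged 6 days, and no group carried a genetic change. They were taken from the subcutaneous fat of the back (BF) or from tissue of the longissimus dorsi, a back muscle (intramuscular cells, IMF). At near confluence both depots received the same induction medium with 3-isobutyl-1-methylxanthine (IBMX, which blocks the breakdown of cAMP), dexamethasone (a synthetic glucocorticoid) and insulin, then medium with insulin alone, then growth medium. RNA was sampled on days 0, 2, 4 and 8, with 3 libraries in each of the 8 groups, named BF-0d to BF-8d and IMF-0d to IMF-8d. The cells were isolated by collagenase digestion and sieving of tissue from 3 piglets, and a sort by surface markers is not given in the sources used here. The muscle was digested for longer and with more collagenase than the fat. No label ties a library to an animal, so p-values measure only the spread between libraries, which may be technical.

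WNT proteins are secreted, lipid-modified signals that bind Frizzled receptors. With the co-receptors LRP5 and LRP6 they stabilise beta-catenin, which acts in the nucleus with TCF/LEF factors, and this branch is known for holding preadipocytes undifferentiated. Other WNTs, such as WNT5A and WNT11, mostly act without beta-catenin, often through the receptor ROR2. Secreted Frizzled-related proteins (SFRPs) bind WNTs outside the cell, whereas DKK1 binds the LRP co-receptors.

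The 300 bases before the RefSeq gene start are printed for 4 members, to set side by side the upstream DNA of the SFRP genes that moved in opposite directions and of AXIN2, the feedback target. They were read from the pig genome Sscrofa11.1 on the strand of the gene, 5′ to 3′. Capitals mark matches to CTTTGA, the core read by TCF/LEF factors, to AGAACA, a glucocorticoid receptor half-site, or to TGACGT, part of the cAMP response element, searched on both strands.
SFRP1 (chr17:10489774-10490073, minus strand): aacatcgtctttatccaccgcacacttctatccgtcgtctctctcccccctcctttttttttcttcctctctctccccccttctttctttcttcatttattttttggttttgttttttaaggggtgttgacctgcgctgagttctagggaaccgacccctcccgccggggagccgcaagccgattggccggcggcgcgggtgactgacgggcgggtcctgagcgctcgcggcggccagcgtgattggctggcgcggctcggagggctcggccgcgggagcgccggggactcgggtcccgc
SFRP2 (chr8:75337011-75337310, plus strand): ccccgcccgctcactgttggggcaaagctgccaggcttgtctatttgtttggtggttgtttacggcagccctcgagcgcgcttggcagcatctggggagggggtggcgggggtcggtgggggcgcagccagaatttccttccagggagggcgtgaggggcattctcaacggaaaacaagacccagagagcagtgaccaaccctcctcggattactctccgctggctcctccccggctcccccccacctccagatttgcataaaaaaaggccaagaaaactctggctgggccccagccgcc
SFRP4 (chr9:108414336-108414635, minus strand): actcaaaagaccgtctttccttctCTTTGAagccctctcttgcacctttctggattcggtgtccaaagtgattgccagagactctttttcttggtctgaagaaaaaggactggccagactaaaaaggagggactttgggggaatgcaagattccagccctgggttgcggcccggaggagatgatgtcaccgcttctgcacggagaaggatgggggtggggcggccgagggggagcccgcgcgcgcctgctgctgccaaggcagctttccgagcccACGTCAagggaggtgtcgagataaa
AXIN2 (chr12:12343208-12343507, minus strand): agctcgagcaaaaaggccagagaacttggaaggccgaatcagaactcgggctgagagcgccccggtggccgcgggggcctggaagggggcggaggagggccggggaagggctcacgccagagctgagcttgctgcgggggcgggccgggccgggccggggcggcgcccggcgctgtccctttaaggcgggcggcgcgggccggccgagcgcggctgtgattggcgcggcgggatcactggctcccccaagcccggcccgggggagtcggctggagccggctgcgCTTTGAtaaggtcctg

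In the window of AXIN2 the letters CTTTGA stood 16 bases before the gene start. The window of SFRP4 held CTTTGA 276 bases and, on the opposite strand, TGACGT 25 bases before the start, and these did not overlap. SFRP1 and SFRP2 held none of the 3 motifs. Nor did WNT2, WNT5A, WNT11 or DKK3, whereas DKK1 held CTTTGA at 289 and 235 bases and WNT10B held TGACGT at 44 bases. The whole WNT10B window lies in exons of WNT1, and its match in the coding sequence of WNT1. The AXIN2 window lies in the span of CEP112, outside its exons. Over the windows of 19556 genes, CTTTGA was present in 13.1%, AGAACA in 12.6% and TGACGT in 7.58%. A match describes letters in the window and is no evidence of binding.

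Expression is given in FPKM, mapped fragments scaled by transcript length and by library size, which allows levels of different genes to be compared per length. FPKM keeps no read counts, so the depth behind a value is unknown. Between 9985 and 10858 genes reached 1 FPKM in a library, and a 0 stood in at least 1 library for 4 genes whose median exceeded 10 FPKM, so that an exact 0 can be a failed estimate. Replicate 3 of BF-2d stood apart from its group on the first principal component (-17.2, against 26.5 and 27.2), and replicate 3 of BF-4d lay at 65.1 against 43.1 and 51.0. The latter lay within the range of BF-8d (62.6 to 65.5), and the former between BF-0d (-37.7 to -34.2) and the other two of its group, so that the BF-2d and BF-4d means pool unlike libraries. Whether timing of the culture or labelling differed for them was not tested. Called changes of members that rest on them are also given without both, an alternative chosen after the data were seen.

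The defining markers of the culture were mixed. LPL, the lipase that releases fatty acids for storage, had a mean of 2.22 FPKM in BF-0d, 422 in BF-8d, 1.06 in IMF-0d and 120.4 in IMF-8d. The late adipocyte markers ADIPOQ, PLIN1 and LEP had group means of at most 0.111 FPKM throughout, so these 3 were all but absent on day 8 in both depots. FABP4, a fatty acid carrier, had means of 2.02, 0.371, 0.67 and 3.47 FPKM in BF and 0, 0.0123, 0.0547 and 0.404 in IMF, and CIDEC, a lipid droplet protein, of 0.579, 0.141, 0.0422 and 0.678 FPKM in BF and 0.264, 0.219, 0.169 and 0.582 in IMF on days 0, 2, 4 and 8, with both highest on day 8 in each depot. Summed over the 9 adipocyte markers in the table, libraries ranged from 9.16 to 10.9 FPKM in BF-0d, 23.1 to 93.4 in BF-2d, 182 to 318 in BF-4d and 281 to 622 in BF-8d. The corresponding ranges in IMF were 2.79 to 3.67, 5.18 to 7.65, 11.4 to 14.3 and 97.2 to 143. LPL made up most of the sum in BF-8d and IMF-8d. PPARG, the master regulator of fat cell formation, had means of 3.003, 2.76, 1.58 and 0.973 FPKM in BF and 0.256, 0.473, 0.854 and 0.123 in IMF on days 0, 2, 4 and 8, with its day 8 means below those of day 0. CEBPA, its partner factor, had means of 2.26, 9.37, 4.02 and 2.35 FPKM in BF and 1.75, 2.89, 5.89 and 1.76 in IMF, with day 8 close to day 0. Fibroblast markers were high in every group, with all 6 of the stromal markers in the table above 1 FPKM. In bulk RNA, fewer cells of a type and less RNA per cell cannot be told apart.

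WNT5A and SFRP1 rose in both depots by day 8. SFRP2 and SFRP4 fell in BF between days 2 and 4 and in IMF between days 4 and 8. A gene was called when its adjusted p in limma was under 0.01 and its log2 fold change of FPKM + 1 was at least 1 in size. Of the 10 members, 9 could be tested, and DKK1 could not. In BF, 3 of the 9 were called over days 0 to 2 (all 3 higher, against 6.59% of the 16135 genes tested), 4 over days 2 to 4 (2 higher and 2 lower, against 3.35%) and 0 over days 4 to 8 (against 2.93%), where 4 had an unadjusted p under 0.05, as did 5189 of the 16135 genes. From day 0 to day 8, 5 were called in BF (3 higher and 2 lower, against 13.7%). In IMF, 1 was called over days 0 to 2 (higher, against 0.787%), 0 over days 2 to 4 (against 0.0372%, with 0 members and 1345 of all genes at an unadjusted p under 0.05) and 6 over days 4 to 8 (4 higher and 2 lower, against 7.25%). Over the whole course 4 were called in IMF, all higher, against 9.04% of all genes. The median log2 change of the members from day 0 to day 8 was 0.54 in BF and 0.76 in IMF, beside -0.06 and -0.05 over all genes tested.

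Between depots, 0 of 9 members were called on day 0 (against 2.58% of all genes), where 1 member, WNT2, had an unadjusted p under 0.05, as did 4125 of all 16135 genes. The count was 3 on day 2 (1 higher in IMF and 2 lower, against 4.74%), 6 on day 4 (2 higher and 4 lower, against 11.3%) and 4 on day 8 (3 higher and 1 lower, against 6.96%). Median differences between IMF and BF were -0.07, -0.52, -0.85 and 0.99 on the log2 scale on days 0, 2, 4 and 8, beside 0.02, 0.07, 0.07 and 0.04 over all genes. An interaction contrast, the change in IMF minus the change in BF, tested whether a change differed between depots. It called 0 members over days 0 to 2 (against 2.45%), where 5 had an unadjusted p under 0.05, as did 4869 of all genes, and 3 over days 2 to 4 (against 3.06%). Another 3 were called over days 4 to 8 (against 6.39%), and 2 over the whole course (against 4.98%). Without replicate 3 of BF-2d, the interaction from day 0 to day 2 called 4 members, with the share of all genes not given. Among them were WNT5A (-2.39), WNT11 (-2.67) and SFRP4 (1.86). Intervals that share a day share libraries, as do comparisons with the same group.

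**Figure D1:**
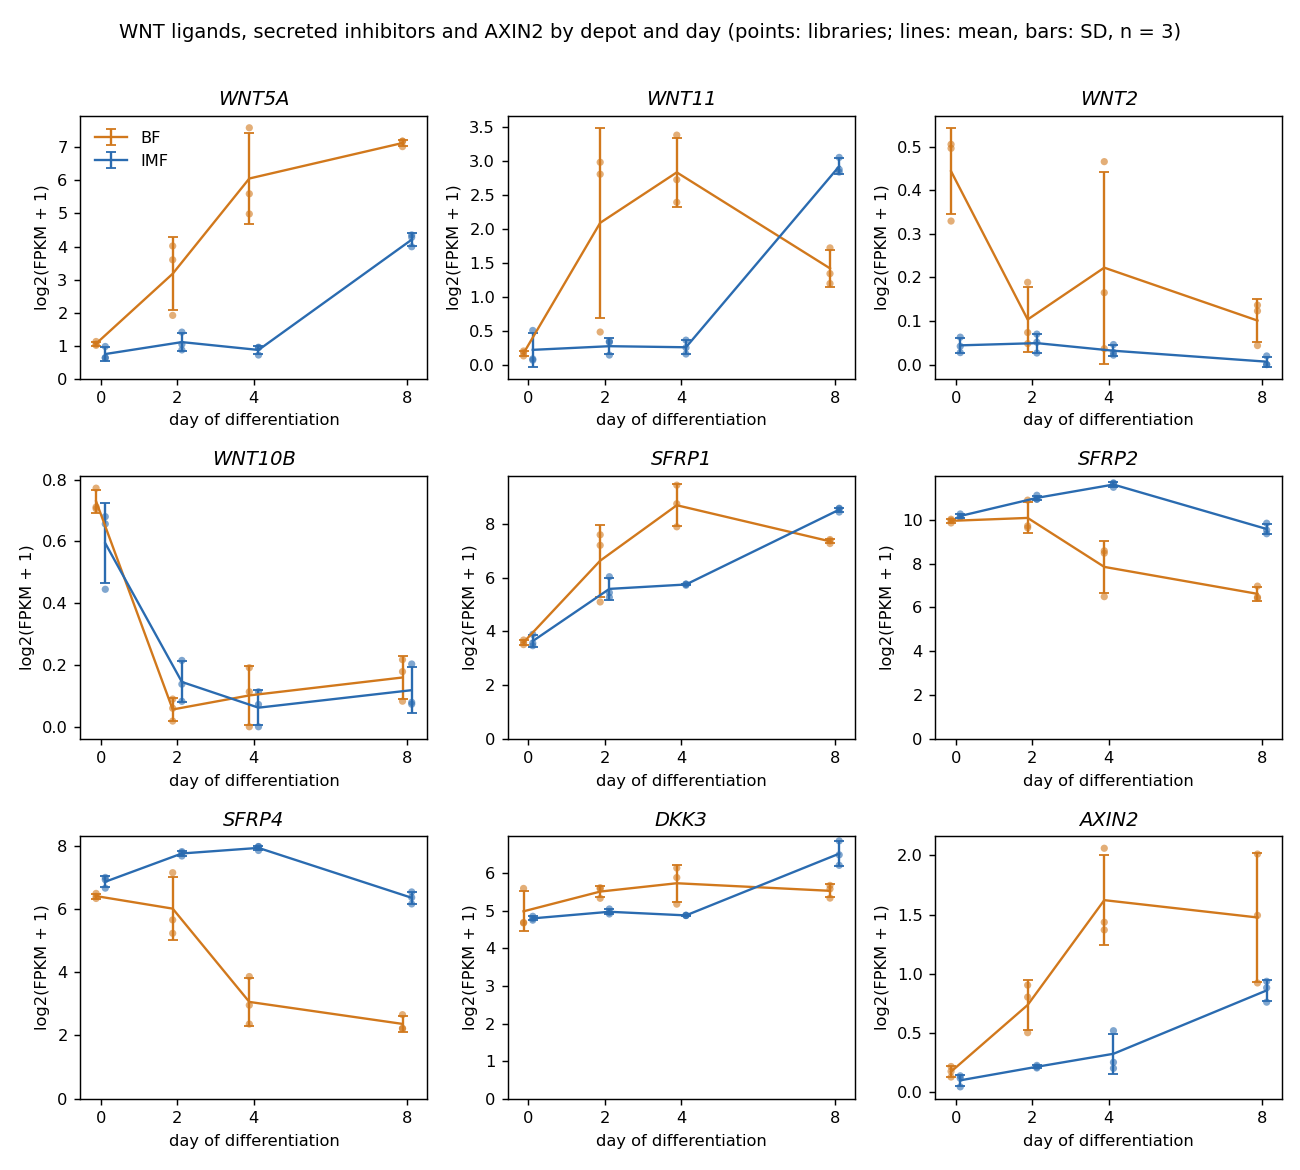
Level of each tested member as log2(FPKM + 1) (vertical axis, its range set per gene) against the day of differentiation for BF (orange) and IMF (blue), with 1 point per library, lines through the means and bars of 1 SD (n = 3). WNT5A and SFRP1 climbed from day 0 in BF and mostly after day 4 in IMF. SFRP2 and SFRP4 dropped in BF mainly after day 2 and in IMF after day 4. In replicates 1 and 2 of BF-2d SFRP4 already lay below every BF-0d library.

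WNT5A (chr13:37344684-37367215, minus strand in Sscrofa11.1), a ligand that mostly acts without beta-catenin, showed the widest range among the ligands. In BF its 3 libraries read 1.06, 1.01 and 1.18 FPKM on day 0, 15.2, 11.102 and 2.77 on day 2, 30.7, 47.4 and 192 on day 4 and 145, 129 and 145 on day 8. In IMF they read 0.963, 0.547 and 0.546 on day 0, 1.06, 1.65 and 0.825 on day 2, 0.639, 0.932 and 0.917 on day 4 and 18.4, 19.4 and 14.9 on day 8. Every BF library from day 2 on lay above every BF library of day 0, whereas in IMF only day 8 stood clear of the earlier days. BF-8d and BF-4d overlapped at the top of the order, IMF-8d overlapped BF-2d, and the remaining groups lay near 1 FPKM.

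The fitted log2 change of WNT5A in BF was 2.12 ± 0.48 (SE, adjusted p = 0.00209) over the first interval and 2.88 ± 0.48 (adjusted p = 0.000342) over the next. Between day 0 and day 8 it was 6.08 ± 0.48 (adjusted p = 5.21e-09), a 129-fold higher mean FPKM. In IMF the rise fell between day 4 and day 8, at 3.34 ± 0.48 (adjusted p = 2.36e-05). WNT5A was lower in IMF than in BF on day 2 (-2.07 ± 0.48, adjusted p = 0.00367), day 4 (-5.19 ± 0.48, adjusted p = 6.91e-08) and day 8 (-2.93 ± 0.48, adjusted p = 9.23e-05). Its change from day 2 to day 4 differed between depots (-3.12 ± 0.67, adjusted p = 0.00576), a call kept in 5 of 12 fits that left out 1 library and lost without a filter on low values and when only the libraries compared were fitted (adjusted p = 0.068). Without replicate 3 of BF-2d and of BF-4d, its 3 successive changes in BF were 2.75, 1.48 and 1.84, all called, where that from BF-4d to BF-8d was 1.08 ± 0.48 (adjusted p = 0.123) with them and not called, and the interaction from day 2 to day 4 was -1.72.

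WNT11 (chr9:10413182-10435158, minus strand), another ligand of that class, rose early in BF and late in IMF. Its BF libraries read 0.0993, 0.137 and 0.156 FPKM on day 0, 6.01, 6.92 and 0.403 on day 2, 5.63, 9.45 and 4.27 on day 4 and 1.299, 1.54 and 2.31 on day 8. The IMF libraries read 0.0659, 0.0527 and 0.425, 0.109, 0.265 and 0.276 and 0.196, 0.291 and 0.121 on days 0, 2 and 4, then 6.16, 6.36 and 7.32 on day 8. Thus 2 of the 3 BF-2d libraries and all of BF-4d were high, and by day 8 every IMF library lay above every BF library. The log2 change was 1.92 ± 0.40 (adjusted p = 0.00118) from BF-0d to BF-2d and 2.66 ± 0.40 (adjusted p = 4.48e-05) from IMF-4d to IMF-8d. WNT11 was lower in IMF on day 2 (-1.81 ± 0.40, adjusted p = 0.0029) and day 4 (-2.57 ± 0.40, adjusted p = 3.93e-05), and higher on day 8 (1.501 ± 0.40, adjusted p = 0.0065). The day 8 difference passed the threshold in 0 of 6 fits that left out 1 library, at log2 differences of 1.39 to 1.65. It was also lost at a pseudocount of 0.1 (adjusted p = 0.0299) or 0.5 (adjusted p = 0.0104), without a filter on low values, and under median ratio and quantile scaling. The change from day 4 to day 8 differed between depots by 4.07 ± 0.57 (adjusted p = 6.33e-05). From BF-4d to BF-8d the log2 difference was -1.41 ± 0.40 (adjusted p = 0.019), and -1.63 and called without replicate 3 of BF-2d and BF-4d.

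The calls of WNT5A and WNT11 from BF-0d to BF-2d were lost without BF-2d replicate 1 (1.70 and 1.56) or replicate 2 (1.91 and 1.47). On day 2 both depot differences were lost without either of these, without IMF-2d replicate 1 or without IMF-2d replicate 3, with WNT5A at -2.04 to -1.65 and WNT11 at -1.85 to -1.37. Without replicate 3 of BF-2d and BF-4d they were instead larger, at -2.70 for WNT5A and -2.62 for WNT11, and the change of WNT11 from BF-0d to BF-2d was 2.72, all called.

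WNT10B (chr5:14997377-15013928, minus strand), best known as a beta-catenin ligand that holds back fat formation, was low and highest on day 0. It read 0.638, 0.631 and 0.708 FPKM in BF-0d and 0.361, 0.603 and 0.577 in IMF-0d, and no later library exceeded 0.163. Day 0 thus did not overlap day 2 in either depot. The log2 difference from day 0 to day 2 was -0.67 ± 0.07 (adjusted p = 5.84e-07) in BF and -0.45 ± 0.07 (adjusted p = 0.000309) in IMF, under the size threshold on this scale, which understates changes of low genes. Both passed it with a pseudocount of 0.1, at -2.46 and -1.58. The DNA next to the RefSeq start of WNT10B lies in exons of WNT1, which did not pass the filter on low values. Whether fragments near that start were assigned to the right gene was not tested.

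WNT2 (chr18:28945825-28993969, plus strand), also a beta-catenin ligand, stayed at or under 0.42 FPKM in each of the 24 libraries. BF-0d read 0.256, 0.411 and 0.42 and IMF-0d 0.0192, 0.0295 and 0.0445, so that the depots did not overlap on day 0. Later BF means were 0.0753 ± 0.0566, 0.176 ± 0.184 and 0.0729 ± 0.037 (SD, n = 3) on days 2, 4 and 8, and in IMF-8d it was listed at 0 in 2 of 3 libraries. The day 0 difference between depots was -0.40 ± 0.08 (adjusted p = 0.00101), under the size threshold, and -1.80 and called with a pseudocount of 0.1.

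SFRP1 (chr17:10436414-10489773, minus strand), a secreted WNT antagonist, rose in both depots from similar levels on day 0. In BF the libraries read 11.07, 10.4 and 11.8 FPKM on day 0, 194, 147 and 33.3 on day 2, 434, 702 and 238 on day 4 and 171, 154 and 165 on day 8. In IMF they read 13.8, 10.8 and 10.1, then 42.7, 64.9 and 37.7, then 53.3, 51.9 and 53.5, and finally 381, 386 and 349.5. BF peaked on day 4, whereas IMF-2d and IMF-4d overlapped at an intermediate level and IMF-8d lay above all other IMF libraries. In the order of the means, BF-4d overlapped IMF-8d, and BF-8d overlapped BF-2d.

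The fitted log2 change of SFRP1 was 3.05 ± 0.43 (adjusted p = 2.52e-05) from BF-0d to BF-2d and 2.07 ± 0.43 (adjusted p = 0.00197) from BF-2d to BF-4d. In IMF it was 1.95 ± 0.43 (adjusted p = 0.00756) up to day 2 and 2.79 ± 0.43 (adjusted p = 5.01e-05) after day 4. The early IMF rise passed the threshold in 0 of 6 fits that left out 1 library, at log2 changes of 1.72 to 2.10, and the rise from BF-2d to BF-4d was lost without BF-4d replicate 2, at 1.69. Over the whole course the change was 3.77 ± 0.43 (adjusted p = 5.54e-07) in BF and 4.90 ± 0.43 (adjusted p = 3.86e-08) in IMF, or 14.8-fold and 32.1-fold in mean FPKM. The interaction test did not call the difference between these changes, a miss that does not show them equal. On day 4 SFRP1 was lower in IMF, by a log2 difference of -2.96 ± 0.43 (adjusted p = 1.61e-05). Its change from day 4 to day 8 differed between depots by 4.14 ± 0.61 (adjusted p = 9.36e-05). Without replicate 3 of BF-2d and BF-4d, the BF changes were 3.82 and 1.70, and the drop from BF-4d to BF-8d, -1.35 ± 0.43 (adjusted p = 0.0326) with them, was -1.75 and called.

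SFRP2 (chr8:75337311-75345926, plus strand), a secreted Frizzled-related protein of mesenchymal cells, had the highest FPKM of the 10 genes in 6 of the 8 groups. BF read 923, 1003 and 1039 FPKM on day 0, 842, 793 and 1903 on day 2, 382, 354 and 88.6 on day 4 and 124, 84.3 and 87.1 on day 8. IMF read 1126, 1103 and 1228, 2220.3, 1967 and 1954 and 3285, 3227 and 2857 on days 0, 2 and 4, and 656, 737 and 916 on day 8. The IMF groups of days 0, 2, 4 and 8 did not overlap, with day 4 highest and day 8 lowest, and on every day each IMF library lay above each BF library. In BF-2d, replicate 3 stood far above the other two.

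SFRP4 (chr9:108404314-108414335, minus strand), a close relative that also binds WNTs, was expressed at a lower level. The BF libraries read 83.1, 79.3 and 88.7 FPKM on day 0, 36.5, 49.2 and 140.3 on day 2, 13.5, 6.77 and 4.14 on day 4 and 5.31, 3.66 and 3.66 on day 8. Those of IMF read 120.2, 99.7 and 126, 223, 203 and 217, 249.6, 249 and 229 and 81, 70.2 and 91.7 on the same days. On every day the 2 depots were separate, with IMF above BF.

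From BF-2d to BF-4d the log2 change was -2.24 ± 0.38 (adjusted p = 0.000407) for SFRP2 and -2.95 ± 0.35 (adjusted p = 1.68e-05) for SFRP4. In IMF both fell from day 4 to day 8, SFRP2 with -2.03 ± 0.38 (adjusted p = 0.000359) and SFRP4 with -1.58 ± 0.35 (adjusted p = 0.00148). From day 0 to day 8 mean FPKM in BF fell 10.03-fold for SFRP2 (log2 -3.33 ± 0.38, adjusted p = 5.32e-07) and 19.9-fold for SFRP4 (log2 -4.04 ± 0.35, adjusted p = 1.39e-08). Over that course neither was called in IMF, and the difference between depots itself was 2.74 ± 0.54 (adjusted p = 0.00138) for SFRP2 and 3.53 ± 0.49 (adjusted p = 5.56e-05) for SFRP4. Their changes from day 2 to day 4 also differed between depots, by 2.85 ± 0.54 (adjusted p = 0.00218) and 3.12 ± 0.49 (adjusted p = 0.000719).

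On day 4 IMF exceeded BF by 3.76 ± 0.38 for SFRP2 (adjusted p = 1.99e-07) and 4.87 ± 0.35 for SFRP4 (adjusted p = 2.07e-09), and on day 8 by 2.96 ± 0.38 (adjusted p = 6.44e-06) and 3.98 ± 0.35 (adjusted p = 4.71e-08). SFRP4 was already higher in IMF on day 2 (1.74 ± 0.35, adjusted p = 0.00117), a call lost without BF-2d replicate 2 (1.56). Without replicate 3 of BF-2d and of BF-4d, the falls from BF-2d to BF-4d were -1.15 for SFRP2 and -2.03 for SFRP4, and the interactions were 1.76 and 2.21, all still called. Likewise, the depot differences on day 4 were -4.42 for WNT5A, -2.79 for WNT11, -3.36 for SFRP1, 3.08 for SFRP2, 4.52 for SFRP4 and -1.08 for AXIN2, each still called. That of SFRP4 on day 2 was 2.31 and called. Calls were then gained for SFRP2 from BF-4d to BF-8d (-1.91, against -1.23 ± 0.38 with them) and between depots on day 2 for SFRP1 (-1.82, against -1.05 ± 0.43) and SFRP2 (1.32, against 0.92 ± 0.38). When only the libraries compared entered the fit, the 7 calls of members in BF over days 0 to 2 and 2 to 4 did not pass, at adjusted p from 0.023 to 0.204, nor did the 3 interactions from day 2 to day 4 or the 3 depot differences on day 2.

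**Figure D2:**
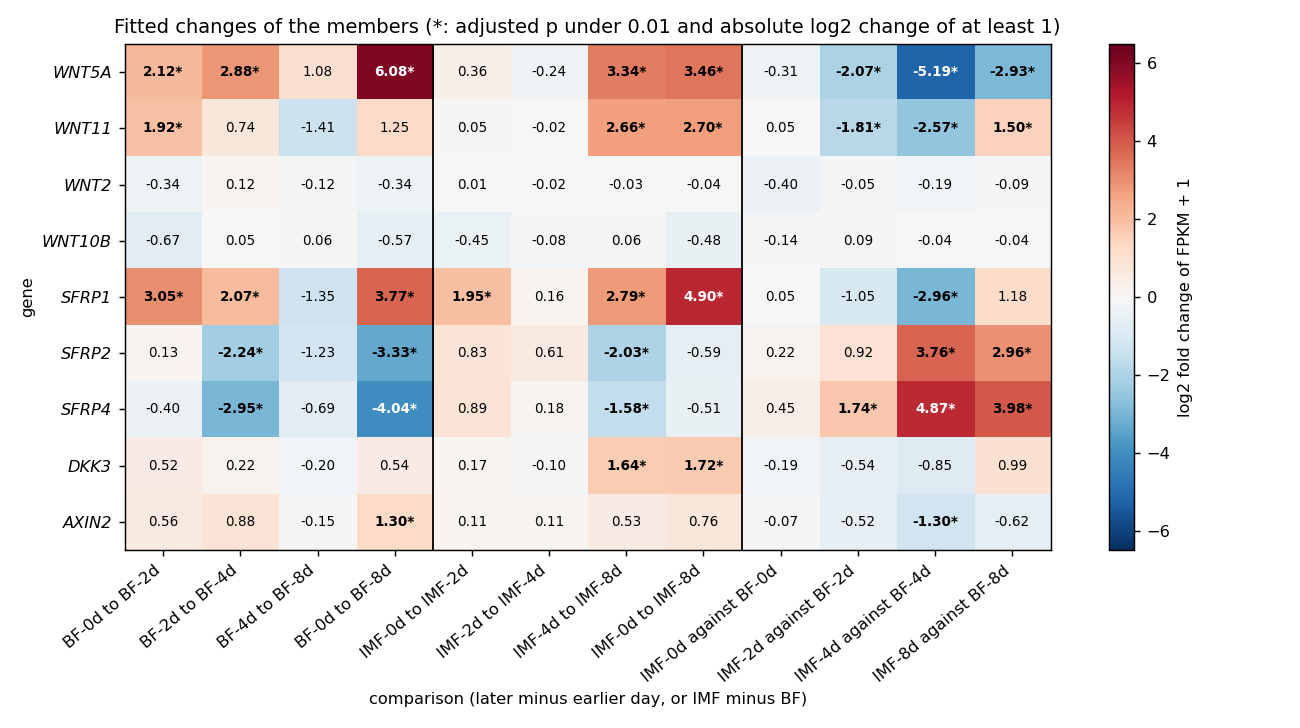
Fitted log2 fold change of FPKM + 1 (colour and number) for 9 members (rows) in 12 pairwise comparisons (columns), later minus earlier day or IMF minus BF, with called values starred and in bold. The column from IMF-2d to IMF-4d holds 0 calls, the column from IMF-4d to IMF-8d 6, and SFRP2 and SFRP4 carry the opposite sign to WNT5A in the depot differences of days 2, 4 and 8.

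The make-up of the SFRPs turned over. This quantity was chosen after the values had been seen and was not tested. Of the FPKM summed over SFRP1, SFRP2 and SFRP4, SFRP1 made up 1.03% ± 0.069 (SD, n = 3) in BF-0d, 11.5% ± 8.74 in BF-2d, 63.5% ± 10.1 in BF-4d and 61.7% ± 4.17 in BF-8d. In IMF its share was 0.91% ± 0.18 on day 0, 2.11% ± 0.69 on day 2, 1.55% ± 0.13 on day 4 and 30.7% ± 4.40 on day 8. Within BF-2d, replicate 3 had 1.60%, near the day 0 libraries, while the highest of the other two had 18.1%. The 3 genes together reached 1083 ± 61.6 FPKM in BF-0d and 266 ± 30.5 in BF-8d, and 1279 ± 77.0 in IMF-0d, 3418 ± 243 in IMF-4d and 1223 ± 123 in IMF-8d.

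**Figure D3:**
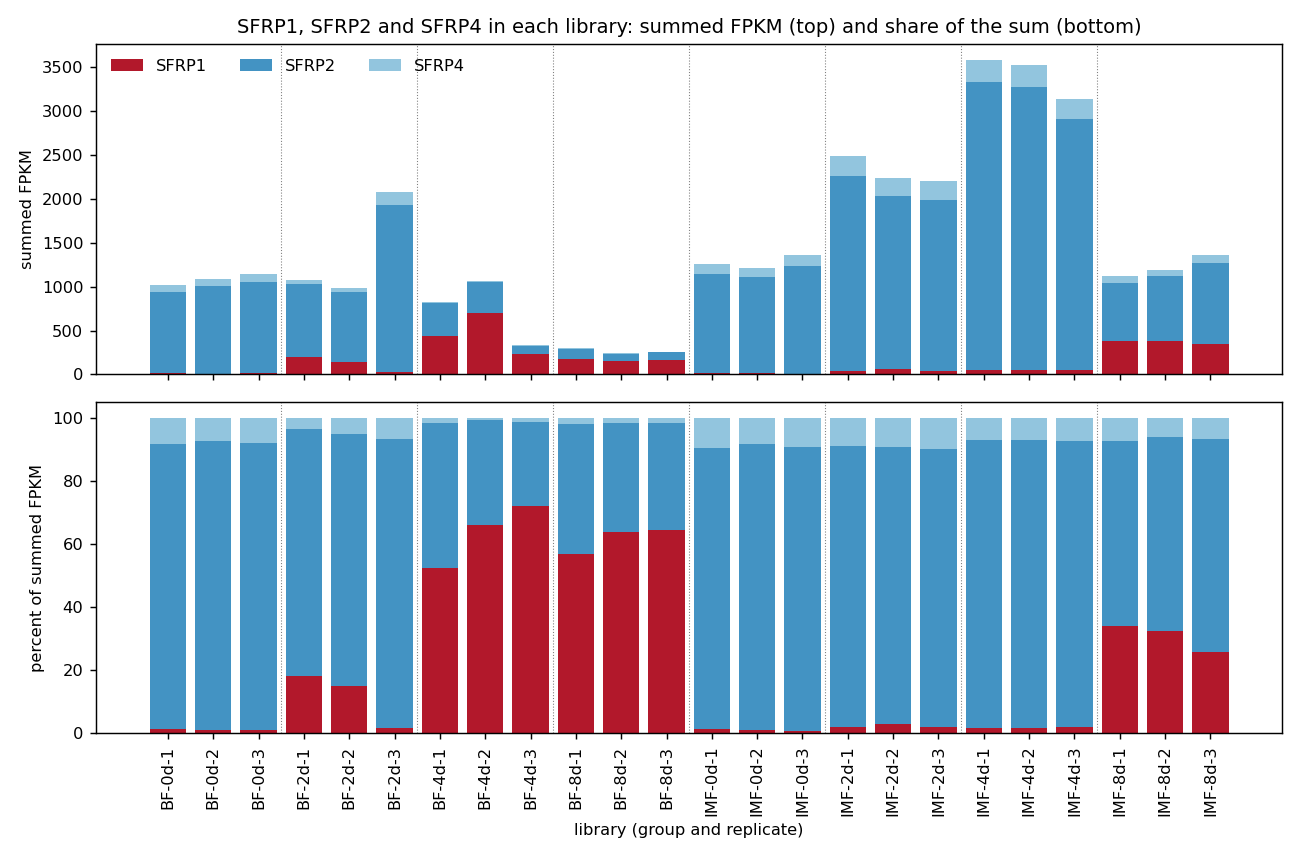
Summed FPKM of SFRP1, SFRP2 and SFRP4 (top) and the percent of that sum from each (bottom) in every library, ordered by depot, day and replicate. SFRP1 made up 52.3 to 72.0% in BF-4d and 25.7 to 34.1% in IMF-8d, and at most 2.90% in IMF up to day 4.

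DKK3 (chr2:47385244-47444664, plus strand), a secreted relative of DKK1 that is not a firm WNT antagonist, was called within a depot only in IMF, where it rose late. It read 25.9, 26.6 and 27.8 FPKM in IMF-0d, 30.0, 32 and 29.1 in IMF-2d, 28.3, 28.2 and 28.5 in IMF-4d and 88.5, 72.7 and 115 in IMF-8d. In BF it read 24.8, 47.2 and 24.5 on day 0, 46.9, 47.9 and 39.2 on day 2, 35.1, 57.9 and 69.2 on day 4 and 46.7, 39.3 and 49.96 on day 8. All days overlapped in BF, while IMF-8d lay above every other library of either depot. The log2 change from IMF-4d to IMF-8d was 1.64 ± 0.22 (adjusted p = 1.36e-05), and it differed from that of BF by 1.84 ± 0.32 (adjusted p = 0.000435). The depot difference on day 8 was 0.99 ± 0.22 (adjusted p = 0.00187), just under the size threshold, and it passed in 4 of 6 fits that left out 1 library. DKK1 (chr14:97487854-97490118, minus strand), which blocks the LRP co-receptors, was listed at 0 in all 24 libraries and was not tested.

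AXIN2 (chr12:12311293-12343207, minus strand), a scaffold of the beta-catenin destruction complex that beta-catenin itself induces, was low on day 0 in both depots. Its BF libraries read 0.164, 0.131 and 0.094 FPKM on day 0, 0.873, 0.746 and 0.418 on day 2, 1.59, 1.71 and 3.17 on day 4 and 3.03, 0.897 and 1.82 on day 8. IMF read 0.086, 0.102 and 0.033, 0.154, 0.171 and 0.161 and 0.193, 0.435 and 0.151 on days 0, 2 and 4, and 0.695, 0.916 and 0.845 on day 8. BF-0d, BF-2d and BF-4d did not overlap each other, and BF-8d overlapped BF-4d. From BF-0d to BF-8d the log2 change was 1.301 ± 0.20 (adjusted p = 1.54e-05). In IMF the difference over that course was 0.76 ± 0.20 (adjusted p = 0.00434), under the size threshold, but called at a pseudocount of 0.5 (1.20, adjusted p = 0.000827) and of 0.1 (2.42, adjusted p = 3.54e-05). Mean FPKM on day 8 was 14.8-fold that of day 0 in BF and 11.12-fold in IMF, and the interaction test did not call the difference between these changes (adjusted p = 0.188), a miss that does not show them equal. On day 4 AXIN2 was lower in IMF by a log2 difference of -1.297 ± 0.20 (adjusted p = 2.37e-05).

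Markers of other cell types were read beside these courses. Of the 5 mural markers, which label pericytes and vascular smooth muscle, RGS5 varied widely, with means of 0.0481, 2.00, 32.6 and 3.43 FPKM in BF and 1.16, 1.89, 4.75 and 69.6 in IMF on days 0, 2, 4 and 8. Its highest groups, BF-4d and IMF-8d, were also the highest of SFRP1 and WNT11. CSPG4 of the same list ran otherwise, with means of 13.6, 3.23, 1.04 and 6.06 FPKM in BF and 29.3, 15.5, 13.2 and 5.74 in IMF, lowest in those groups of either depot. Summed over the 5 mural markers, libraries ranged from 143 to 166 FPKM in BF-0d, 137 to 192 in BF-2d, 197 to 287 in BF-4d and 190.3 to 216 in BF-8d, and from 116 to 135, 107 to 133, 119.6 to 132 and 181 to 193 in the IMF groups, and PDGFRB made up most of that sum in every group. At least 4 of the 5 had a mean of 1 FPKM or more in every group. COL1A1, a fibroblast collagen gene of the stromal list, had means of 5753, 2996, 676 and 845 FPKM in BF and 6135, 4838, 4364 and 2062 in IMF on these days. Others of that list did not share this course in both depots. DCN had means of 1004.5, 1045, 597 and 497 FPKM in BF and 777, 1143.5, 1373 and 930 in IMF, so it fell in BF after day 2 and in IMF after day 4. LUM had means of 262, 294, 249 and 328 FPKM in BF and 146, 271, 249 and 136 in IMF. Those of VIM were 3534, 3487, 3588 and 3278 FPKM in BF and 6607, 4520, 4391.5 and 3949 in IMF. PDGFRA had means of 77, 298, 342 and 228 FPKM in BF and 60.1, 105, 144 and 226 in IMF, and COL3A1 of 1711, 1516, 1449 and 2131 FPKM in BF and 1975, 2605, 2368 and 1606 in IMF. Summed over the 6 stromal markers, libraries ranged from 11517 to 12865, 7368 to 13155, 5665 to 7624 and 7099 to 7707 FPKM in the BF groups and from 15001 to 16201, 12416 to 14177, 12790.0 to 13061 and 8550.4 to 9486 in the IMF groups. The part of these cells in the changes of the members was not tested.

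The defining muscle, endothelial and blood cell markers were at or near 0, but others of their lists were present. MYF5 and MYOD1, which define muscle precursors, were listed at 0 in every library, and DES, which muscle cells share with mural cells, stood at 37 FPKM in IMF-0d and 4.68 in BF-0d and at lower means afterwards. The summed myogenic list ranged from 29.6 to 45.3 FPKM in IMF-0d, 3.03 to 4.56 in IMF-2d, 10.01 to 13.2 in IMF-4d and 1.27 to 2.22 in IMF-8d, and stayed under 5 FPKM in every BF library. PTPRC, the common marker of blood cells, had group means of at most 0.0028 FPKM, and CDH5, the cadherin of endothelial cells, at most 0.065. PECAM1, a further endothelial marker, had group means of 1.497 to 4.75 FPKM. CD14, a monocyte marker, had group means of 2.97 to 8.45 FPKM, and CD68, a macrophage marker, 0.829 to 2.11. The summed immune list ranged from 3.15 to 18.8 FPKM over the libraries of BF-4d, which include its highest, and from 7.96 to 10.3 over those of IMF-8d.

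Around the members, 75 further genes of the pathway were listed, of which 57 passed the filter on low values and 27 were called in at least 1 comparison, where 24.9% of all 16135 genes were. Those named below were the highest expressed called genes of each list or those called in at least 4 comparisons.

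Among 15 other WNT ligands, 8 could be tested, and from day 0 to day 8, 1 rose in BF and 1 fell in IMF, beside 13.7% and 9.04% of all genes called in those comparisons. WNT5B, close kin of WNT5A, was higher in IMF-8d (5.17 ± 0.623 FPKM, SD, n = 3) than in BF-8d (1.56 ± 0.569), with a log2 difference of 1.29 ± 0.17 (adjusted p = 1.05e-05). WNT2B fell in IMF from 1.85 ± 0.0684 FPKM on day 0 to 0.0878 ± 0.0181 on day 8 (-1.39 ± 0.08, adjusted p = 1.37e-10). WNT9A was higher in IMF-4d than in BF-4d (1.19 ± 0.10, adjusted p = 2.54e-08). WNT6, a ligand able to block fat formation, stood at 2.06 ± 1.84 FPKM in BF-8d and 0.0346 ± 0.0308 in BF-0d, a log2 change of 1.38 ± 0.25 (adjusted p = 0.000135) that missed the threshold in 1 of 6 fits without 1 library and when only the libraries compared were fitted.

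Of 12 other secreted modulators 7 were tested, and from day 0 to day 8 they gave 1 rise and 1 fall in BF and 2 falls in IMF, against the same 13.7% and 9.04% of all genes. SFRP5, an antagonist known from fat tissue, was higher in IMF, with 8.15 ± 1.35 FPKM in IMF-0d against 1.37 ± 0.384 in BF-0d. Its depot difference was 1.95 ± 0.19 on day 0 (adjusted p = 3.54e-07) and 2.57 ± 0.19 on day 4 (adjusted p = 3.32e-09). It fell from 7.39 ± 1.02 FPKM in IMF-4d to 0.669 ± 0.301 in IMF-8d (-2.34 ± 0.19, adjusted p = 1.88e-08), the same interval as the falls of SFRP2 and SFRP4. DKK2, which binds LRP co-receptors, fell in both depots, from 8.37 ± 0.484 to 0.0241 ± 0.0109 FPKM in BF (-3.19 ± 0.32, adjusted p = 8.98e-08) and from 3.28 ± 0.369 to 0.00962 ± 0.00839 in IMF (-2.08 ± 0.32, adjusted p = 3.26e-05).

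NOTUM, the secreted enzyme that strips the lipid from WNTs, rose in BF from 0.0806 ± 0.0432 FPKM to 3.44 ± 0.481 between day 0 and day 8 (2.03 ± 0.15, adjusted p = 2.41e-09). Its mean in IMF-8d was 0.731 ± 0.126, and the depot difference on day 8 was -1.35 ± 0.15 (adjusted p = 1.4e-06). RSPO1, which amplifies WNT signals at the receptor, dipped in BF, from 2.2 ± 0.169 FPKM on day 0 to 0.356 ± 0.111 on day 2 (-1.24 ± 0.10, adjusted p = 2.51e-08), and stood at 2.52 ± 0.397 on day 8. In IMF its means were 0.0538, 0, 0.0266 and 0.768 FPKM on days 0, 2, 4 and 8. The depot difference of RSPO1 on day 0 was -1.60 ± 0.10 (adjusted p = 6.67e-10). WIF1, which binds WNTs directly, had means of 6.16 ± 0.358, 2.85 ± 0.417, 2.2 ± 0.12 and 6.36 ± 0.464 FPKM in IMF on days 0, 2, 4 and 8, and its rise from day 4 to day 8 brought it back near its day 0 level (1.20 ± 0.16, adjusted p = 7.77e-06).

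Receptors gave 18 tested genes of 21, with 1 rise and 4 falls in BF (against 13.7% of all genes) and 1 rise and 2 falls in IMF (against 9.04%) from day 0 to day 8. ROR2, the receptor used by WNT5A, fell in BF from 42.2 ± 1.73 FPKM on day 0 to 13.5 ± 1.83 on day 8 (-1.59 ± 0.17, adjusted p = 3.05e-07), as WNT5A rose. In IMF it held 60.4 ± 3.11 FPKM on day 4 and fell to 16.5 ± 1.6 on day 8 (-1.81 ± 0.17, adjusted p = 1.67e-07). On day 4 IMF exceeded BF by 2.18 ± 0.17 (adjusted p = 7.88e-09). FZD8 had the largest depot gap among the named receptors, at 12.8 ± 1.73 FPKM in IMF-4d against 0.558 ± 0.215 in BF-4d (3.15 ± 0.13, adjusted p = 1.29e-12), and it fell from IMF-4d to IMF-8d (-2.60 ± 0.13, adjusted p = 2.35e-11).

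Other Frizzleds moved in both directions in BF. FZD2 fell from 18.9 ± 0.824 FPKM in BF-0d to 2.4 ± 0.669 in BF-8d (-2.57 ± 0.17, adjusted p = 3.67e-10), and FZD7 from 29.4 ± 1.16 to 10.5 ± 2.1 (-1.42 ± 0.17, adjusted p = 9.54e-07). FZD5 rose from 0.23 ± 0.0266 to 4.15 ± 0.401 (2.06 ± 0.18, adjusted p = 2.26e-08), and on day 8 its mean lay above that of FZD2 but below that of FZD7. The co-receptor LRP5 stood at 5.89 ± 0.623 FPKM in IMF-0d and 12.1 ± 0.302 in BF-0d, without overlap, but the difference was not called. LRP5 was lower in IMF on day 2 (-1.24 ± 0.14, adjusted p = 2.16e-06, but 0.0228 when only the libraries compared were fitted) and day 4 (-1.40 ± 0.14, adjusted p = 1.22e-07), then rose in IMF from 5.75 ± 0.433 FPKM to 15.5 ± 2.48 (1.28 ± 0.14, adjusted p = 6.88e-07). Its partner LRP6 fell over the same days (-1.39 ± 0.36, adjusted p = 0.0056), a call kept in 1 of 6 fits that left out 1 library, at -1.55 to -1.29. PTK7, a co-receptor known mainly outside the beta-catenin branch, was lower in IMF-2d than in BF-2d (-1.07 ± 0.16, adjusted p = 8.68e-05), a call lost without BF-2d replicate 3 (-0.82) and when only the libraries compared were fitted (adjusted p = 0.0469).

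**Figure D4:**
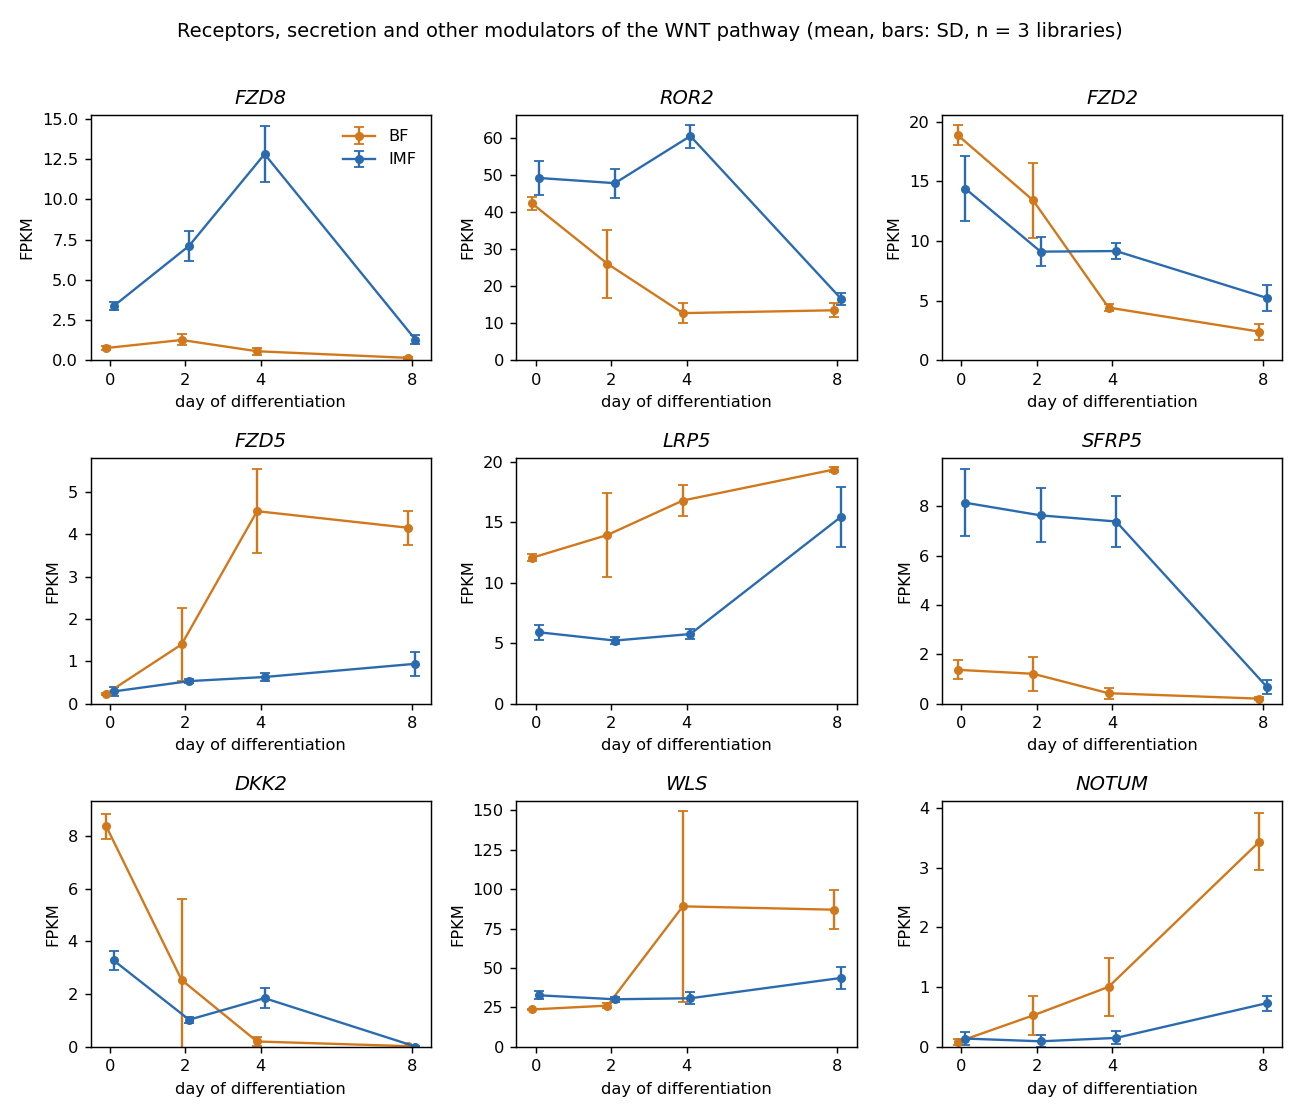
Mean FPKM (vertical axis, from 0, its range set per gene) of 9 named pathway genes against the day of differentiation in BF (orange) and IMF (blue), with bars of 1 SD over 3 libraries. FZD8, ROR2 and SFRP5 stood higher in IMF up to day 4 and dropped by day 8, and FZD5 and NOTUM climbed mainly in BF.

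Of 17 tested genes for WNT secretion and transduction inside the cell, 2 rose in BF (against 13.7% of all genes called) and 1 in IMF (against 9.04%) from day 0 to day 8, and 0 fell. WLS, which carries WNTs to the cell surface, rose in BF from 23.7 ± 0.599 FPKM to 87 ± 12.3 (1.82 ± 0.26, adjusted p = 7.78e-06). PORCN, which attaches the lipid to WNTs, rose in BF (1.48 ± 0.22, adjusted p = 1.13e-05) and in IMF (1.26 ± 0.22, adjusted p = 0.000114). LEF1, a partner of beta-catenin, was lower in IMF-0d (0.358 ± 0.0919 FPKM) than in BF-0d (1.81 ± 0.058), with a log2 difference of -1.05 ± 0.14 (adjusted p = 2.27e-05). APC, of the destruction complex, was lower in IMF-8d than in BF-8d (-1.14 ± 0.28, adjusted p = 0.00367), a call kept in 2 of 6 fits that left out 1 library, at -1.20 to -1.07.

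Of 11 tested beta-catenin targets beside AXIN2, 2 rose in BF (against 13.7% of all genes called) and 1 fell in IMF (against 9.04%) from day 0 to day 8, with median log2 changes of -0.04 and -0.07, beside -0.06 and -0.05 over all genes. Some genes stand in more than 1 list, and the rise of NOTUM in BF is counted here and among the secreted modulators. CCN4, a secreted matrix protein, rose in BF from 4.5 ± 0.432 FPKM to 16 ± 4.75 (1.59 ± 0.16, adjusted p = 7.56e-08). CCND1, a cyclin of the G1 phase, fell in IMF from 61.8 ± 2.49 to 23.6 ± 1.9 (-1.35 ± 0.27, adjusted p = 0.000533). On day 0 IMF exceeded BF (19.6 ± 2.07 FPKM) by 1.61 ± 0.27 (adjusted p = 0.000292), while BF-8d stood at 29.3 ± 1.96. The CCND1 difference on day 2 was 1.08 ± 0.27 (adjusted p = 0.0067), a call kept in 2 of 6 fits that left out 1 library.

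The genes most like each member were those with the highest Pearson correlation of log2(FPKM + 1) over the 24 libraries, a description without a test, since libraries of a group and a depot share their source. VEGFA (r = 0.988) and EREG (r = 0.986), both genes of secreted growth factors, ran closest to WNT5A. SFRP2 and SFRP4 shared their nearest genes, PKDCC (r = 0.983 and 0.974) and ISLR (r = 0.978 for each). SFRP1 ran closest to ANGPT1 (r = 0.970) and TMEM59L (r = 0.969), and WNT11 to ELOVL3 (r = 0.973) and TOX3 (r = 0.969). For AXIN2 they were KDM5B (r = 0.942) and FAM13A (r = 0.940), and for DKK3, FAM20C (r = 0.912) and ARRDC2 (r = 0.906).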

How the data were processed

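RNA-Seq libraries (24) of pig preadipocytes were analysed, and small RNA libraries were not used here. The authors aligned reads with HISAT2 to Sscrofa11.1, assembled and quantified transcripts with StringTie (1.3.4d, per the submitters' processing notes) and deposited FPKM values, 1 per gene and library. They tested counts with DESeq2 (1.6.3, per the same notes), which FPKM does not allow. Library sums of FPKM ran from 307967 to 385768.

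Genes with an FPKM sum over 1 across the libraries (16135 of 25462) were tested as log2(FPKM + 1) with limma 3.58.1 in R 4.3.3 (1 mean per group over all 24 libraries, eBayes with trend and robust). Benjamini-Hochberg adjustment ran over all genes tested within each of 16 comparisons, and the authors' thresholds were kept (adjusted p under 0.01, absolute log2 fold change of at least 1). Errors of log2 changes are SE, and those of FPKM are SD. The fit was tested on simulated data. Members and pathway lists were chosen with earlier results of these data known. Named were all members, per list the called genes with the highest group mean (up to 4) and those called in at least 4 comparisons, and per member the 2 genes most correlated with it. Symbols were matched to Ensembl gene IDs of the table (14815 of 21271 Ensembl IDs paired with a symbol). Upstream sequences and gene spans are from RefSeq on Sscrofa11.1. Alternatives were other pseudocounts (0.1 and 0.5), other filters, median ratio and quantile scaling, fits of only the libraries compared, a fit without trend and robust, a replicate block, and leaving out each library.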

Additional observations from a re-analysis of the deposited data

Results flagged for a closer look

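The change over an interval differed between the depots, by the interaction test of limma (change in IMF minus change in BF, log2 scale), for the following genes. From day 2 to day 4 the differences among members were -3.12 ± 0.67 for WNT5A, 2.85 ± 0.54 for SFRP2 and 3.12 ± 0.49 for SFRP4. The WNT5A difference kept its call in 5 of 12 fits that left out 1 library, ranging from -3.66 to -2.35. It was lost without BF-2d replicate 3 (-2.49), without each IMF-2d library (-3.15, -2.97 and -3.24) and without each IMF-4d library (-3.04, -3.16 and -3.16). From day 4 to day 8 they were 4.07 ± 0.57 for WNT11, 4.14 ± 0.61 for SFRP1 and 1.84 ± 0.32 for DKK3, each called in 12 of 12 such fits, and 4.29, 4.54 and 1.64 without replicate 3 of BF-2d and BF-4d. From day 0 to day 8 they were 2.74 ± 0.54 for SFRP2 and 3.53 ± 0.49 for SFRP4, also called in 12 of 12. The 3 differences from day 2 to day 4 did not pass when only the libraries compared were fitted (adjusted p = 0.068 for WNT5A, 0.0429 for SFRP2 and 0.0267 for SFRP4), and that of WNT5A did not pass without a filter on low values.

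Pathway genes outside the 10 members met the same test. From day 0 to day 2 these were RSPO1 (1.17 ± 0.14) and CCN4 (-1.28 ± 0.22). RSPO1 had means of only 0.0538 and 0 FPKM in IMF on these days, so its difference reflects the fall in BF. From day 2 to day 4 they were FZD2 (1.40 ± 0.23), FZD5 (-1.17 ± 0.26), FZD8 (1.301 ± 0.19), ROR2 (1.28 ± 0.24) and PTK7 (1.02 ± 0.23), of which FZD5 kept its call in 3 of 12 fits that left out 1 library and PTK7 in 5 of 12. None of these 5 passed when only the libraries compared were fitted, and FZD5, ROR2 and PTK7 did not pass without replicate 3 of BF-2d and BF-4d. Without a filter on low values and under quantile scaling FZD5 and PTK7 did not pass, nor did FZD5 at a pseudocount of 0.1 or 0.5. From day 4 to day 8 they were WNT5B (1.08 ± 0.24, called in 6 of 12 such fits, and not at a pseudocount of 0.1, without those BF libraries or when only the libraries compared were fitted), SFRP5 (-2.10 ± 0.27), FZD8 (-2.17 ± 0.19), LRP5 (1.08 ± 0.19, called in 11 of 12) and ROR2 (-1.90 ± 0.24). Over the whole course they were SFRP5 (-1.49 ± 0.27), NOTUM (-1.43 ± 0.22), FZD2 (1.26 ± 0.23), FZD5 (-1.48 ± 0.26), FZD7 (1.12 ± 0.24, called in 11 of 12), CCN4 (-1.85 ± 0.22) and CCND1 (-1.91 ± 0.38). At a pseudocount of 0.1 those of SFRP5 (adjusted p = 0.105) and NOTUM (adjusted p = 0.0144) did not pass.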

How the results depend on the processing

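Counts of called members stayed within 1.5 times of those reported in 138 of 152 alternative counts, leaving out single libraries aside, and no member or named pathway gene reversed its direction where it was called. Of the 44 calls of members, 43 were kept at a pseudocount of 0.1, 43 at 0.5, 41 without a filter, 44 with a filter of 1 FPKM in 3 libraries, 42 under median ratio scaling, 43 under quantile scaling, 44 without trend and robust, and 31 when only the libraries compared were fitted. At a pseudocount of 0.1, the count was 6 over BF days 0 to 2, 8 over BF days 0 to 8, 2 over IMF days 0 to 2 and 1 between depots on day 0. The count from IMF-0d to IMF-2d was 0 without a filter and 0 under median ratio scaling. With only the libraries compared it was 0 over BF days 0 to 2, 0 over BF days 2 to 4, 0 between depots on day 2, 0 for the interaction from day 2 to day 4, and 5 for that over the whole course. Those fits hold fewer samples, and otherwise the cause was not tested. Without replicate 3 of BF-2d and of BF-4d (chosen after seeing the data), the 22 calls of members in comparisons that use these groups were all kept. The counts were then 5 from BF-4d to BF-8d, 5 between depots on day 2 and 5 for the interaction from day 0 to day 2. The share of all genes called is not given for any alternative fit of this section. Its counts therefore cannot be set against the rest of the genes.

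Leaving out 1 library, the count was 1 to 3 over BF days 0 to 2 (1 without BF-2d replicate 1 or 2), 3 to 5 over BF days 2 to 4, 0 to 3 over BF days 4 to 8 (3 without BF-4d replicate 3) and 0 from IMF-0d to IMF-2d whichever library was left out. Between depots it was 0 to 4 on day 2 (1 without BF-2d replicate 1, IMF-2d replicate 1 or IMF-2d replicate 3, and 0 without BF-2d replicate 2), 6 to 7 on day 4 and 3 to 4 on day 8. For the interactions it was 0 to 4 from day 0 to day 2 (4 without BF-2d replicate 3), 2 to 4 from day 2 to day 4, 3 to 4 from day 4 to day 8 and 2 to 3 over the whole course. The other counts were the same in each such fit, at 5 from BF-0d to BF-8d, 0 from IMF-2d to IMF-4d, 6 from IMF-4d to IMF-8d, 4 from IMF-0d to IMF-8d and 0 between depots on day 0.

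The labels number the replicates alike in every group. Deviations of same-numbered libraries from their group means correlated between -0.25 and 0.46, all pairs exceeded 0.1 in 0 of 12 comparisons, and in 0 did every library correlate best with its own number, so the numbers were not taken as pairs. A fit with the replicate block kept 44 of 44 calls of members but not those of FZD5 for the interaction from day 2 to day 4 (-1.17, adjusted p = 0.01) and of CCND1 between depots on day 2 (1.08, adjusted p = 0.0104), with counts of 3, 4, 0 and 5 in BF and 1, 0, 6 and 4 in IMF. The files hold no read counts, so low values such as those of WNT2, WNT10B and AXIN2 carry an unknown counting error.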
